A study of Oryza sativa with 4 samples.

Results

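The WRKY transcription factor genes of rice defence were described in leaves of plants that overexpress OsBIERF3, an ethylene-responsive factor type transcription factor. The list named 6 genes, WRKY24, WRKY45, WRKY51, WRKY53, WRKY71 and WRKY76, and its members are the probe sets whose gene carries one of these names as symbol or synonym. This gave 5 probe sets of 4 genes, out of 57381 probe sets on the array and 17905 genes with a probe set of their own. WRKY45 and WRKY53 had no probe set under these names and were not analysed here. The list was drawn up with the contrast of OsBIERF3-OE against WT already known, and its members were thus chosen by signals of these same arrays; their values in that contrast are given as a description and not as a test.

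Gene expression was measured with 1-colour Affymetrix rice arrays in leaves of 3-week-old Oryza sativa plants of the wild type (WT) and of the OsBIERF3 overexpressor (OsBIERF3-OE), with 2 arrays of each. All plants were kept without stress in a growth room with 14 h days at 28 °C and 10 h nights at 26 °C. The promoter that drives OsBIERF3 and the number of transgenic lines are not given in the sources used here, and no value for the overexpressed gene was analysed here. The arrays are called biological replicates, but whether each stands for its own plant or for a pool is not stated, and the errors below measure only how far these samples differ.

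WRKY proteins are plant transcription factors named after a conserved stretch of amino acids in their DNA-binding domain, and they bind W-box elements in the promoters of their targets. In rice they act downstream of pattern receptors and MAP kinase cascades, together with salicylic acid signalling, and individual members activate or repress defence. WRKY71 and WRKY76 belong, with WRKY62, to the subgroup called IIa, WRKY24 carries a pair of WRKY domains, and WRKY51 belongs to subgroup IId. In the aleurone layer of the rice grain WRKY51 and WRKY71 repress genes induced by gibberellin, and WRKY24 represses responses to gibberellin and abscisic acid.

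All 4 WRKY genes had lower signals on both OsBIERF3-OE arrays than on either WT array. The difference was 3.53-fold for WRKY71, at least 2.28-fold for WRKY76, at least 2.08-fold for WRKY24 and 1.47-fold for WRKY51. Non-overlapping groups with the lower values in OsBIERF3-OE were also found for 39.4% of the 15981 genes tested, so the separation by itself is common on these arrays. WRKY24, WRKY71 and WRKY76 were past limma's adjusted p of 0.05 in the fit over all probe sets and WRKY51 was not, that is 3 of 4 genes, where 14.5% of all genes were past it in that direction. Since this contrast was known when the genes were chosen, nothing is read from that count. The median log2 change (OsBIERF3-OE minus WT) of the 4 genes was -1.74, and -1.12 with signals under background raised to it, against -0.04 and -0.01 over all genes tested.

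WRKY71 (LOC4328512, chromosome 2), whose product is a repressor of gibberellin responses in the aleurone and promotes bacterial blight resistance when overexpressed, had signals of 196 and 139 on WT arrays 1 and 2. On OsBIERF3-OE arrays 1 and 2 its signals were 43.3 and 50.4. The lowest WT value thus lay well above the highest OsBIERF3-OE value, and all 4 values were above background. As the background level of an array served its brightest signal among 33 controls without a rice target, which was 25.1 to 28.0 depending on the array. The means were 167 ± 39.98 on the WT arrays and 46.9 ± 5.04 on the OsBIERF3-OE arrays (SD, n = 2 each), a log2 change of -1.82 with a standard error of 0.21. A second probe set named for WRKY71 read 10.2 and 10.3 in WT and 8.75 and 7.74 in OsBIERF3-OE. It was not above background on any array and did not pass the filter on dim probe sets, so it gives no fold change and no check on the first.

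WRKY76 (LOC4347069, chromosome 9), a transcriptional repressor that lowers resistance to blast fungus and raises cold tolerance when overexpressed, had signals of 90.5 and 42.8 on WT arrays 1 and 2. In OsBIERF3-OE it read 13.4 and 14.6, below background on both arrays. The groups did not overlap, but the WT arrays differed from each other by 2.11-fold, a gap on the log2 scale larger than that of 98.7% of all probe sets tested. The means were 66.7 ± 33.7 for WT and 14.0 ± 0.787 for OsBIERF3-OE (SD, n = 2 each). Set against the background level instead of the dim values, the fall was at least 2.28-fold. That bound rested on the WT arrays, at 1.57-fold when WT replicate 1 was left out and 3.32-fold when WT replicate 2 was.

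WRKY24 (LOC4327518, chromosome 1; also listed as WRKY8) read 56.4 and 57.2 on the WT arrays. The OsBIERF3-OE arrays gave 19.8 and 16.3, again below background on both. Here the WT replicates agreed closely, with a mean of 56.8 ± 0.568, against 18.1 ± 2.46 for OsBIERF3-OE (SD, n = 2 each). The fall was at least 2.08-fold, and the bound was between 2.02-fold and 2.14-fold with 1 array left out. In this bound both OsBIERF3-OE values are background levels. Leaving out an OsBIERF3-OE array thus only changes the background level used and does not check the fall.

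WRKY51 (LOC4335388, chromosome 4), whose product works with WRKY71 in the aleurone, had the smallest difference of the 4 genes. Its signals were 163 and 136 in WT and 107 and 95.9 in OsBIERF3-OE, all above background. The groups did not overlap, yet the gap between the lowest WT and the highest OsBIERF3-OE value was close to the gap between the WT arrays. The log2 change was -0.56 with a standard error of 0.16, from means of 150 ± 19.7 and 101 ± 7.87 (SD, n = 2 each).

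**Figure D1:**
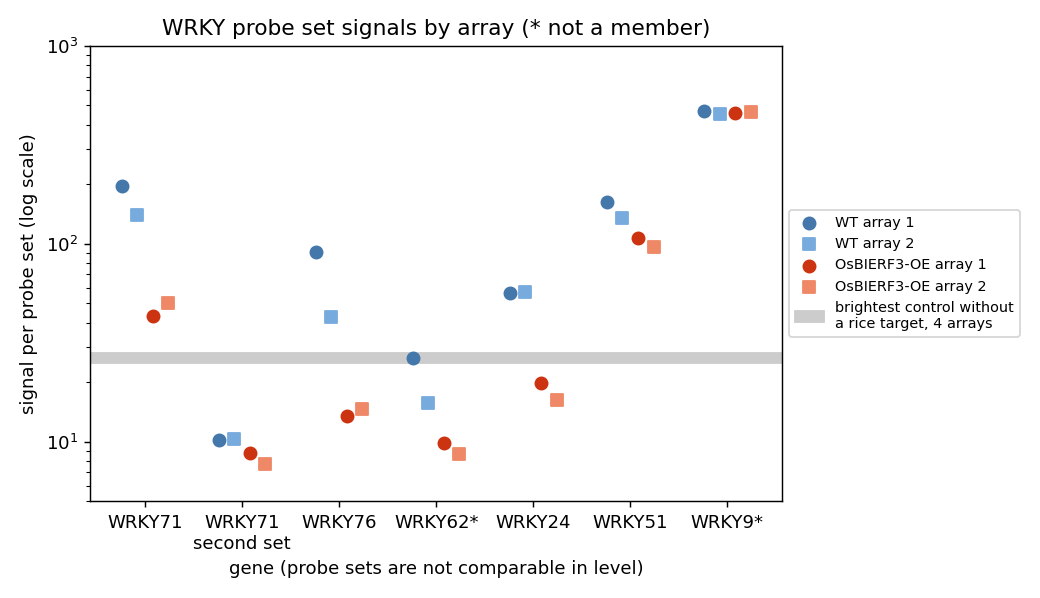
Signal of each WRKY probe set on the 4 arrays (log axis; circles array 1 and squares array 2 of a genotype, blue WT, red OsBIERF3-OE), with a grey band for the background level of 25.1 to 28.0. WRKY71 and WRKY51 stay above the band on all arrays, WRKY76 and WRKY24 drop below it in OsBIERF3-OE, and WRKY9, not a member, has the same level on all 4 arrays.

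Only 2 other genes named as WRKY had a probe set, WRKY62 and WRKY9. WRKY62 (LOC4347070), a repressor of defence that is also known as XB10, a binding partner of the receptor kinase XA21, is the direct neighbour of WRKY76 on chromosome 9, with 0 annotated genes between them. Its signals were 26.4 and 15.6 in WT and 9.81 and 8.61 in OsBIERF3-OE, so that only WT array 1 was above background. No fold is given for WRKY62, since the WT mean of 21.0 ± 7.64 was itself under the background level. Its log2 change had a limma adjusted p of 0.0364, from which nothing is read. The OsBIERF3-OE signals lay under the filter level of 12.3, so WRKY62 entered the fit only through its WT signals. Leaving out 1 array gave log2 changes between -1.52 and -0.76. With signals raised to background the log2 change of WRKY62 was 0.083, so its direction was not measured. WRKY9 (LOC4343736) read 467 and 454 in WT and 457 and 465 in OsBIERF3-OE. Its groups overlapped, and its log2 change was 0.00 with a standard error of 0.11 (limma adjusted p = 0.994).

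The WRKY genes also differed in how far the WT arrays lay apart. WT array 1 read higher than WT array 2 for 3 of the 4 members, with ratios of 2.11 for WRKY76, 1.41 for WRKY71 and 1.21 for WRKY51. The ratio was 0.986 for WRKY24 and 1.03 for WRKY9. For WRKY62 it has no exact value, since WT array 2 was below background. On the log2 scale the gap of WRKY71 was larger than that of 91.1% of tested probe sets and the gap of WRKY76 larger than that of 98.7%. In OsBIERF3-OE, array 1 read 0.859 times array 2 for WRKY71 and 1.12 times for WRKY51, while WRKY76 and WRKY24 were below background there. With 2 arrays per genotype, no test of a difference in spread was made.

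Among all 34355 probe sets tested, 0.929% had a lower log2 change than WRKY71 and 14.2% a lower one than WRKY51. These shares describe the 2 members measured above background on all arrays, and nothing is read from them, since the members were chosen with this contrast known. The values of WRKY76 and WRKY24 in OsBIERF3-OE are below background, so neither their rank among all probe sets nor their order relative to WRKY71 was measured. With all signals raised to the background level, the log2 changes were -1.82 for WRKY71, -1.19 for WRKY76 and -1.06 for WRKY24.

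**Figure D2:**
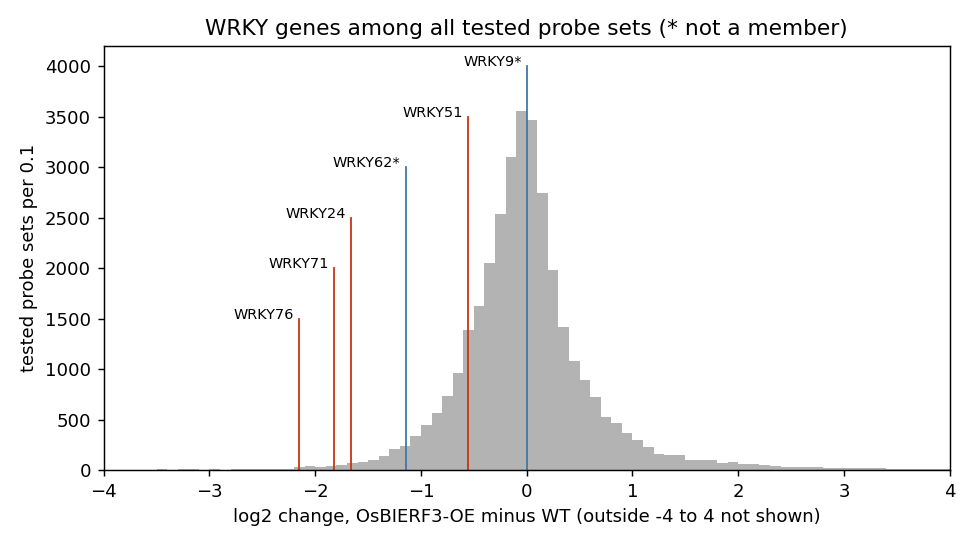
Histogram of the log2 change (OsBIERF3-OE minus WT) of the tested probe sets in steps of 0.1, with lines for WRKY members (red) and the other named WRKY genes (blue, starred). WRKY71 lies at -1.82, WRKY51 at -0.56 and WRKY9 at 0.00; the lines of WRKY76, WRKY24 and WRKY62 rest on OsBIERF3-OE signals below background, so their exact places were not measured.

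Control transcripts on the same arrays also differed between the genotypes. The 27 hybridization control probe sets were on average 0.29 lower on the log2 scale in OsBIERF3-OE, and 26 of them were lower. The 36 poly-A control probe sets, bacterial transcripts made to be added to the RNA sample, were 0.60 lower on average, and all 36 were lower. The labels do not say how much of either was added. Scaling the arrays on these controls moved the median of all probe sets from -0.04 to 0.25 and to 0.56. WRKY76, WRKY71 and WRKY24 kept negative log2 changes under both, at -1.56, -1.22 and -1.06 with the poly-A controls. The values of WRKY76 and WRKY24 rest on OsBIERF3-OE signals below background, so their sizes were not measured. Their bounds ("at least") apply to the values as deposited and were not computed under these scalings. The log2 change of WRKY51 was -0.27 with the hybridization controls and turned to 0.041 with the poly-A controls. Relative to the median of all probe sets, which such scaling moves by the same amount, WRKY51 was lower by a log2 change of -0.52 and WRKY71 by -1.78 under any of these scalings. The 3′ over 5′ ratio of the rice actin, GAPDH and ubiquitin controls, which reports on RNA integrity, was also lower in OsBIERF3-OE, by 0.27 to 0.85 on the log2 scale, and that of cyclophilin was 0.042 higher. The part of RNA integrity in the WRKY values was not tested.

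**Figure D3:**
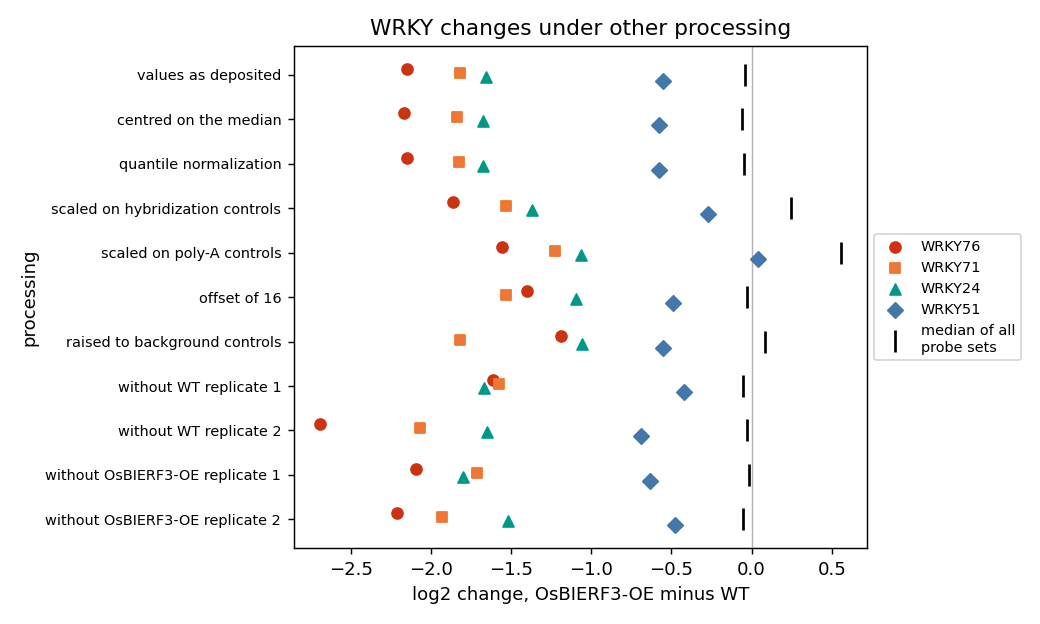
Log2 change (OsBIERF3-OE minus WT) of the 4 WRKY genes under each processing, 1 row per setting, with the median of all probe sets as a black tick. WRKY76, WRKY71 and WRKY24 stay left of 0 in every row drawn. Except where signals are raised to background, the points of WRKY76 and WRKY24 rest on OsBIERF3-OE signals below background. Their exact places were thus not measured. WRKY51 crosses 0 when arrays are scaled on poly-A controls, where the median of all probe sets is 0.56.

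The genes whose levels over the 4 arrays were most like each WRKY gene were found by the Euclidean distance between mean-centred log2 levels, among 2217 tested genes with a name. This is a description over 4 arrays, and the 2 nearest are named. WRKY51 was nearest to the ethylene receptor gene ERS2 (LOC4337850) at 0.019, with signals of 287 and 237 in WT and 184 and 167 in OsBIERF3-OE, and to the hexokinase gene HXK6 (LOC4338010) at 0.067. WRKY71 was nearest to THT2 (LOC4348504) at 0.24, with signals of 203 and 143 in WT and 54.2 and 51.6 in OsBIERF3-OE. WRKY71 and WRKY51 lay 1.30 from each other. The other distances use OsBIERF3-OE signals below background, so their values and order were not measured. On the values as deposited they were 0.43 between WRKY71 and ARP9 (LOC4335089), an actin-related protein gene, 0.54 between WRKY76 and WRKY71, and 0.63 between WRKY76 and THT2. For WRKY24 they were 0.20 to the metal chelate transporter gene YSL13 (LOC4336441) and 0.25 to the potassium transporter gene HAK16 (LOC4333298).

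Genes that act around these WRKY factors were followed in 7 lists that hold 120 tested genes in all, with 1 probe set per gene. Of these, 11 rose and 21 fell in OsBIERF3-OE at a limma adjusted p of 0.05, and 88 did not pass; over all genes, 17.2% rose and 14.5% fell. Their median log2 change of -0.26 was 0.03 with arrays scaled on hybridization controls and 0.34 with poly-A controls. With either control scaling 9 genes fell, and with poly-A controls 38 rose. Without WT replicate 2, 10 fell, and without OsBIERF3-OE replicate 2, 9 fell.

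Upstream of the WRKY factors, there were 6 rises and 3 falls among 19 genes of pattern receptors and MAP kinase cascades, with a median log2 change of 0.07. With the replicate number as a block, 4 rose and 1 fell. The median was -0.02 without WT replicate 2 and 0.10 without OsBIERF3-OE replicate 1. LYP4 (LOC4347230), a receptor protein that binds peptidoglycan and chitin, rose from 43.2 and 42.6 to 184 and 193 (limma adjusted p = 0.00105). The scaffold gene RACK1A (LOC4324115) rose 2.43-fold. The third gene named by size, LOC4333919 at 2.40-fold, is an actin gene that shares the synonym RAC1 with the Rac GTPase gene. It is counted in the 19 genes and the 6 rises, although it is not a receptor or cascade gene. Chosen after its values were seen, the chitin receptor gene CEBIP (LOC4331522) rose 2.39-fold, from 89.5 and 91.7 to 228 and 205. The MAP kinase gene MPK5 (LOC4332475, also MPK3), whose product phosphorylates WRKY factors in rice, was chosen in the same way. It fell by 1.08 on the log2 scale, from 138 and 137 to 59.5 and 70.6 (limma adjusted p = 0.0102). With arrays scaled on the hybridization controls its log2 change was -0.79 (adjusted p = 0.0235), and with the poly-A controls -0.48 (0.133); under these scalings 1 and 0 genes of the list fell and 8 and 10 rose. Among the other MAP kinase genes of the list, MPK2 had a log2 change of -0.77 and MPK15 of 0.55 (limma adjusted p = 0.0156 and 0.0435). Neither call held when WT replicate 1, WT replicate 2 or OsBIERF3-OE replicate 2 was left out. The pair of loci listed as CERK1, the chitin receptor kinase, had -0.21 and -0.45 and did not pass.

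In salicylic acid signalling, whose regulator NPR1 acts in a branch of rice immunity beside WRKY factors, 5 of 9 genes fell and 4 did not pass, with a median log2 change of -0.44. Without either WT array 0 of the 9 passed by limma, while 5 had an unadjusted p under 0.05 in each case, all lower. With arrays scaled on the poly-A controls 1 fell, 2 rose and the median was 0.16. NPR3 (LOC4333666), an NPR1 homologue, had WT signals of 518 and 687 and OsBIERF3-OE signals of 288 and 165 (limma adjusted p = 0.0258), and its 3 other probe sets were also called lower. Of these other probe sets, those that read 13.3 and 12.5, and 23.2 and 13.1, in OsBIERF3-OE were below background there. NPR1 (LOC4327315) had a log2 change of -0.85 and the bZIP gene TGA2.1 (LOC4344349), which encodes an NPR1 partner, of -0.69. With the poly-A controls the log2 changes were -0.86 for NPR3, -0.25 for NPR1 and -0.09 for TGA2.1. With the hybridization controls NPR3 passed, while NPR1 and TGA2.1 did not (limma adjusted p = 0.0814 and 0.0796).

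Downstream, in the synthesis of diterpenoid phytoalexins, there was 1 rise and there were 2 falls among 13 genes, and the median log2 change was -0.80. That median rested on the WT arrays: leaving out WT replicate 2 gave -0.12 and 0 falls by limma (2 at an unadjusted p under 0.05), and leaving out WT replicate 1 gave -1.13 and 7 falls. KSL7 (LOC4329724), which encodes a diterpene synthase on the way to phytocassanes, rose at least 18.6-fold on its brightest probe set. A second KSL7 probe set read 13.4 and 16.5 in WT, below background, and only 36.8 and 47.0 in OsBIERF3-OE. The size of the KSL7 rise thus depends on the probe set. CYP71Z6 and KSL5 had log2 changes of -1.09 and -0.96 (limma adjusted p = 0.013 and 0.0263). Without WT replicate 2 neither fall passed (0.0637 and 0.107), and without OsBIERF3-OE replicate 1 KSL5 did not (0.0764). Among 14 pathogenesis-related genes there was 1 rise and 1 fall, with a median log2 change of -0.40. These counts and the median changed with the setting. Scaling on the poly-A controls gave 6 rises, 3 falls and a median of 0.20. Scaling on the hybridization controls kept 1 rise and 1 fall, with a median of -0.11. The replicate number as a block gave 1 rise and 3 falls. Dropping WT array 2 brought the median to -0.15, and dropping WT array 1 instead brought it to -0.47. The chitinase gene CHT10 (LOC4325148) fell by 2.17 on the log2 scale and the lectin gene salT (LOC4326471) rose 2.58-fold. That list also holds a pair of tubby-like genes matched through the synonym TLP1, which are not pathogenesis-related genes.

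In the gibberellin and abscisic acid list, the hormones on which WRKY24, WRKY51 and WRKY71 act in the aleurone, 8 of 25 genes fell by limma and 0 rose (10 and 1 at an unadjusted p under 0.05), with a median log2 change of -0.28. The number of falls was 4 with the hybridization controls and 0 with the poly-A controls, where 6 rose, and without WT replicate 2 it was 2. Those named by size were the kinase genes SAPK1 and SAPK9, at log2 changes of -1.09 and -0.89, and MYBS1, a regulator of alpha-amylase genes, at -0.87. Without WT replicate 2, SAPK1 (limma adjusted p = 0.0543) and MYBS1 (0.0507) did not pass. Among 12 genes of brassinosteroids, a pathway in which WRKY53 acts, there were 2 rises and 1 fall, with a median log2 change of 0.12. OFP8 rose at least 6.27-fold and SMOS1 3.95-fold, and the bHLH gene IBH1 had a log2 change of -0.51 that turned to 0.09 with the poly-A controls and did not pass without any 1 of the 4 arrays. Of 28 jasmonate genes 1 rose and 1 fell at a limma adjusted p of 0.05 (1 and 5 at an unadjusted p under 0.05). Their median log2 change of -0.27 was 0.33 with the poly-A controls. The fall was in BHLH148, at a log2 change of -1.53 (limma adjusted p = 0.0147, and 0.0531 without OsBIERF3-OE replicate 2). The rise was in the lipoxygenase gene LOX5, at 0.91 (0.0265, and 0.0923 and 0.0927 without WT replicate 2 or OsBIERF3-OE replicate 2).

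**Figure D4:**
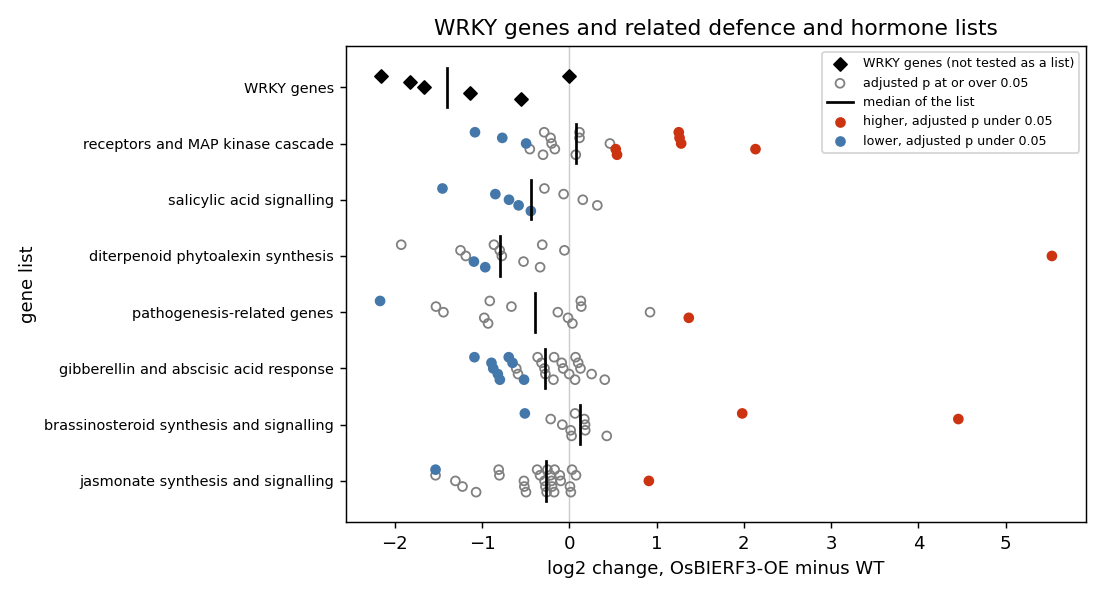
Log2 change (OsBIERF3-OE minus WT) of the 6 measured WRKY genes (black diamonds) and of each tested gene of the 7 lists, with 1 point per gene and a black line at each median. Red and blue points passed a limma adjusted p of 0.05. On the values as deposited, the salicylic acid and the gibberellin and abscisic acid lists have falls and no rises, while receptors have calls on both sides. With poly-A controls (not drawn) these lists have 1 fall and 2 rises, 0 and 6, and 0 and 10. The diamonds of WRKY76, WRKY24 and WRKY62 rest on OsBIERF3-OE signals below background, so their places were not measured.

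The leaf label was checked against marker genes. The filter on dim probe sets had removed 1 of 8 leaf, 2 of 5 root and 5 of 9 seed markers with a probe set. The counts above background below thus cover only markers bright enough to be tested. All 7 tested leaf markers were above background on all arrays, among them the Rubisco activase gene RCA (LOC4351224), with a signal of 8563 ± 104 for WT and 6457 ± 487 for OsBIERF3-OE (SD, n = 2 each). Of the leaf markers, 3 fell, PSAG, GLO4 and RCA, at log2 changes of -1.17, -0.43 and -0.41, and with the poly-A controls GLO4 and RCA turned to 0.17 and 0.19. Of 3 tested root markers, 1 was above background on all arrays, and the smallest limma adjusted p was 0.0849, for LSI1. Of 4 tested seed markers, 2 were, and GLUA2 and GLB, at log2 changes of -0.97 and -0.50, fell. A second probe set of GLUA2, above background on all 4 arrays, had a log2 change of -0.12 and did not pass (limma adjusted p = 0.616). GLB turned to 0.098 with the poly-A controls. The calls for GLO4, RCA and GLB were lost when any 1 of the 4 arrays was omitted, with log2 changes of -0.49 to -0.36, -0.49 to -0.33 and -0.55 to -0.45. The summed leaf marker signal was 53082 and 53161 in WT and 47109 and 45701 in OsBIERF3-OE, and that of the root markers was 324 and 283 against 242 and 187. The seed markers summed to 2241 and 2133 in WT and to 1460 and 1421 in OsBIERF3-OE, with GLB at 1540 ± 76.5 in WT (SD, n = 2). Fewer cells of a type and less RNA per cell cannot be told apart in whole leaves, and the part of leaf composition in the WRKY values was not tested.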

How the data were processed

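The deposited table gives linear signal intensity, with a row for each probe set. The submitters' processing notes name MAS5, without its role or version; how the authors normalized the arrays and corrected the background is not given in the sources used here. Sorted log2 values of each array lay within 0.0803 of the 4-array mean at the same rank, so the deposited arrays share nearly the same distribution, which would hide a global shift.

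Groups came from the sample titles. After removal of 123 Affymetrix controls, the brightest 60% of probe sets by mean log2 signal over all 4 arrays (geometric mean above 12.3), 34355 probe sets, were fitted with limma 3.58.1 in R 4.3.3 (genotype alone, eBayes with an intensity trend) and Benjamini-Hochberg adjustment at 0.05. The fit had 2 residual degrees of freedom, and p-values reflect the spread of these samples alone. The standard errors of log2 changes are limma's moderated ones, which draw on the variance of all tested probe sets as well as the gene's own. Every adjusted p-value given is limma's.

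Probe sets were named by gene ID through the RefSeq gene table of ASM3414082v1. A single gene was given for 22436 probe sets; 95 with several genes were left unnamed, and 34727 non-control probe sets are unnamed here. The brightest tested probe set stood for a gene. The members and lists were chosen with earlier results of these data known. The text names every WRKY probe set, up to 3 called genes of each list by size of change (or 2 by p), and the 2 nearest patterns. In the receptor and MAP kinase list, CEBIP, MPK5, MPK2, MPK15 and the CERK1 loci are named outside this rule. A bound ("at least") compares mean log2 signals after those of the dim group are raised to the brightest control with no target in rice on each array. Alternatives were other scalings, an offset of 16, filters, the variance model, a replicate block and leaving out each array, where the lone array left in a genotype is assumed to vary like the other genotype. The small number of arrays limits precision throughout.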

Additional observations from a re-analysis of the deposited data

How the results depend on the processing

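The 6 scalings and background settings gave 24 log2 changes for the 4 WRKY genes, of which 23 were negative and 12 lay within 1 SD of replicates of the reported value. Filters, the variance model and blocks cannot move these log2 changes. The exception in sign was WRKY51 with arrays scaled on poly-A controls, an alternative chosen after seeing the data, at 0.041; with hybridization controls it was -0.27. The same 2 scalings gave -1.06 and -1.37 for WRKY24, -1.22 and -1.53 for WRKY71, and the poly-A controls -1.56 for WRKY76. An offset of 16 gave -1.10 for WRKY24, -1.53 for WRKY71 and -1.40 for WRKY76. Raising signals to background gave -1.06 for WRKY24, -1.19 for WRKY76 and 0.083 for WRKY62, whose values then are mostly the background level itself. With the upper 40% of probe sets only 2 of the 4 genes were in the fit and 1 passed; under the other alternatives 3 or 4 passed. Over all probe sets, 4273 rose and 4058 fell; scaling on hybridization controls gave 7729 and 1615, and on poly-A controls 14083 and 919. Leaving out 1 array gave 2111 to 2903 rises and 1159 to 3268 falls. For the pathway genes together, hybridization controls gave 9 falls, poly-A controls 38 rises and 9 falls, and leaving out 1 array 8 to 9 rises and 9 to 19 falls.

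With the replicate number as a block, 2665 probe sets rose and 1875 fell; replicate deviations of the genotypes correlated at -0.25, and the labels give same-numbered arrays no shared origin. The crossed pairing, added after seeing the data, gave 5790 rises and 6549 falls, and 36 falls among the pathway genes. The cause of these changes was not tested. Signals under background limit WRKY24, WRKY76 and WRKY62.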
